A study of Mus musculus with 6 samples.

Results

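The genes described here are 10 adhesion genes that hold haematopoietic stem and progenitor cells in the bone marrow: the integrin chains Itga4, Itga5, Itga6, Itgal, Itgb1, Itgb2 and Itgb7, the integrin ligand Vcam1, the hyaluronan receptor Cd44, and Selplg, which encodes the selectin ligand PSGL-1. They were taken from a list of names chosen with earlier results of these data known. All 10 were found among the 22180 genes of the array table, each with at least 1 probe set of its own. The cells profiled were LSK cells, sorted from marrow as negative for lineage antigens, positive for Sca-1 and high for c-Kit, a fraction that contains the stem cells and multipotent progenitors. Cells came from 3 male mice with a tamoxifen-inducible conditional knockout of Ctcf (Ctcf cKO) and 3 male WT mice, all 8 weeks of age, and each sample was hybridised to a single Affymetrix array. Tamoxifen was injected into all mice at 2 mg daily for 3 days, and marrow was sorted 24 hours after the final dose. The design text sets CreER mice against the knockout whereas the control samples are labelled WT, and it is unclear if these carried CreER. No promoter driving CreER is named in the labels. The arrays are labelled as biological replicates.

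Integrins are paired α and β chains that bind matrix proteins or counter-receptors on other cells, and they bind firmly only after signals inside the cell have switched them to an open form. The β1 chain pairs with α4, α5 and α6, the β7 chain with α4, and the β2 chain with αL to form LFA-1. On haematopoietic progenitors the α4 integrins bind VCAM-1 and fibronectin, α5β1 binds fibronectin and α6β1 binds laminins, while CD44 and PSGL-1 serve adhesion to hyaluronan and to the selectins of marrow vessels. CTCF, the deleted protein, binds DNA through zinc fingers and anchors chromatin loops.

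RefSeq promoter sequences of build GRCm38.p6 were found for 5 of the 10 genes, Itga4, Itga5, Itgb1, Itgb7 and Cd44. The 250 bases before the gene start were searched on both strands for GGNGGCAG, 8 letters from the core of the CTCF motif and the only motif searched. These letters were in the promoters of Itgb7 and Itgb1, and in 9.93% of all 32851 RefSeq promoters of that length. The sequences of the integrin chains Itgb7 and Itgb1 are shown because they hold that match, and Itga5 because its difference between the groups was the largest in the other direction from Itgb7. Capitals mark the 8 letters. The Itgb7 window is chr15:102231936-102232185 on the minus strand, that of Itgb1 is chr8:128685404-128685653 on the plus strand, and that of Itga5 is chr15:103366792-103367041 on the minus strand.
Itgb7: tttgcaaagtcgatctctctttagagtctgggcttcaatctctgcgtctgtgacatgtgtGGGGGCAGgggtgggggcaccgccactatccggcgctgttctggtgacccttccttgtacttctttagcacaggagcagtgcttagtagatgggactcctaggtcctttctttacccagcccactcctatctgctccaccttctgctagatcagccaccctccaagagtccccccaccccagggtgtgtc
Itgb1: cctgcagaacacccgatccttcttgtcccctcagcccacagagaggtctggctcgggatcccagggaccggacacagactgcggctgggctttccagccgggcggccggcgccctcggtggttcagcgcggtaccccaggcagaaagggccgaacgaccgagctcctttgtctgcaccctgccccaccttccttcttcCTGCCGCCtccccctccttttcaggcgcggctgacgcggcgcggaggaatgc
Itga5: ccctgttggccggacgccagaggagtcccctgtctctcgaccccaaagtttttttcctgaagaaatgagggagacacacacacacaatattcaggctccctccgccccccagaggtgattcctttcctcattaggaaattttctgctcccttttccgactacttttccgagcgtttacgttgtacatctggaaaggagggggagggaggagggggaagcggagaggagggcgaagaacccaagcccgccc
The match begins 190 bases before the Itgb7 start and 52 bases before the Itgb1 start, where it lies on the opposite strand. A match describes the letters only, and CTCF binding was not measured here.

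The values are log2 levels made by RMA, a procedure that corrects background, equalises the distributions of the arrays and summarises the probes of a probe set. Levels are compared between arrays for 1 gene at a time, since probe sets of different genes differ in brightness for reasons of their own. Array medians over all probe sets lay between 5.99 and 6.07. Ctcf stood at 7.58, 7.78 and 7.86 in the 3 Ctcf cKO arrays, against 8.35, 8.59 and 8.73 in the 3 WT arrays, so the groups did not overlap. This is a log2 difference of -0.82 (SE 0.13, limma adjusted p = 0.104), or 56.7% of the WT level. Which exons the probes cover relative to the deletion is not stated. RMA gives no detection call, so the presence of a surface marker cannot be read from these values, and Ly6a, which encodes Sca-1, was not analysed here. Of the 7 other surface markers of LSK cells measured, 0 passed the test. At an unadjusted p under 0.05 by limma 1 was higher and 1 lower, beside 5.03% and 3.08% of all genes. These were Slamf1, higher by 0.33 without overlap, and Flt3, at -0.42 with overlap. Kit, for which the cells were sorted, was at 10.13, 10.12 and 10.21 in Ctcf cKO arrays, against 10.26, 10.65 and 10.22 in WT arrays. The groups of Kit narrowly did not overlap, and its difference was -0.22 (limma adjusted p = 0.727), or -0.09 without WT replicate 2.

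None of the 10 adhesion genes passed the test for a difference between Ctcf cKO and WT cells. The test was limma over all 22180 genes, with a call at a Benjamini-Hochberg adjusted p under 0.05. It called 0.0721% of all genes, so little can be read from a count of 0 among 10 members. Only Itgb7, which was lower, had an unadjusted p under 0.05 by limma, that is 1 of 10, against 8.11% of all genes, 5.03% higher and 3.08% lower. The log2 differences, Ctcf cKO minus WT, lay between -0.32 for Itgb7 and 0.28 for Itga5, and 5 members were negative and 5 positive, beside 45.3% negative and 54.7% positive over all genes. Their median was -0.01, against 0.02 for all genes. The arrays of the groups did not overlap for 4 members, Itgb7, Itgal and Selplg on the lower side and Itgb2 on the higher, where 13.3% of all genes were so separated, 5.32% lower and 7.96% higher. With 3 arrays a group the smallest exact two-sided permutation p is 0.1, so single values cannot reach 0.05 by that test. That value, 0.1, was reached by the 4 separated members, while the exact p of the other 6 lay between 0.2 for Itga5 and 0.9 for Vcam1.

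**Figure D1:**
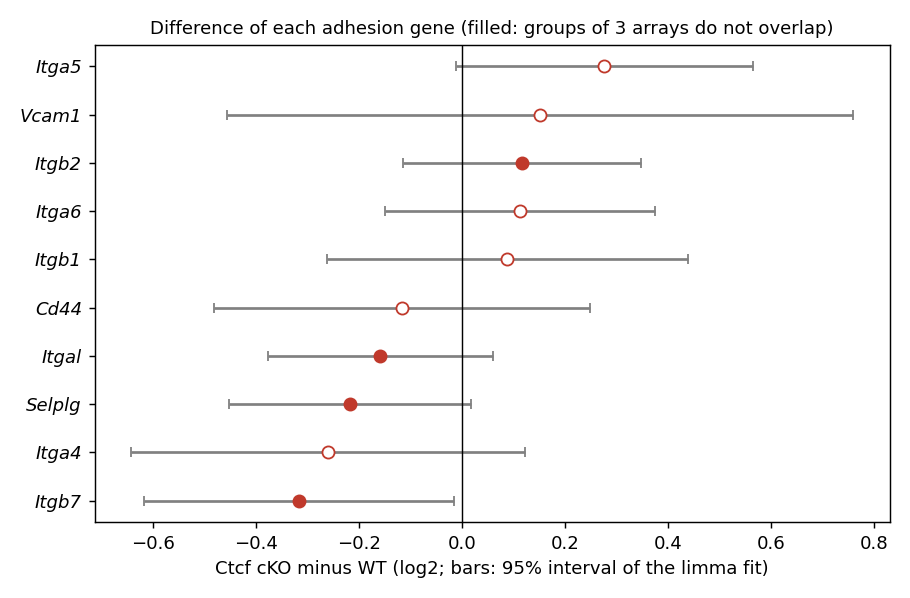
Log2 difference, Ctcf cKO minus WT, of each of the 10 adhesion genes on the horizontal axis, with the 95% interval of the limma fit as bars. Filled points are the 4 genes whose groups of 3 arrays do not overlap (Itgb2, Itgal, Selplg and Itgb7), and the interval of Itgb7, from -0.62 to -0.02, is the only one that leaves out 0.

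Both chains of the α4β7 integrin had negative differences that missed the threshold. Itga4 encodes the α4 chain that binds VCAM-1 and fibronectin. Its log2 level was 10.15, 10.13 and 10.49 in Ctcf cKO arrays, against 10.27, 10.83 and 10.44 in WT arrays. The groups overlapped, with Ctcf cKO replicate 3 above WT replicates 1 and 3, and WT replicate 2 was the highest of all. The difference was -0.26 (SE 0.17, 95% interval -0.64 to 0.12, limma adjusted p = 0.757). It became -0.10 without WT replicate 2 and -0.38 without WT replicate 1. A further probe set is assigned to Itga4 together with Cerkl, and was not used in the fit by gene. This dimmer probe set read 6.68, 6.61 and 6.50 in Ctcf cKO arrays, against 6.66, 6.47 and 6.52 in WT arrays, with overlapping groups.

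Itgb7 encodes the β7 chain, which joins α4 in an integrin known for homing of lymphocytes to the gut. The arrays gave Itgb7 log2 levels of 7.32, 7.35 and 7.02 in Ctcf cKO arrays, against 7.38, 7.61 and 7.66 in WT arrays. The highest Ctcf cKO array and the lowest WT array were only 0.03 apart, so the separation of the groups is narrow, and Ctcf cKO replicate 3 was the lowest of the 6. The difference was -0.32 (SE 0.13, 95% interval -0.62 to -0.02), with an unadjusted p of 0.0408 and an adjusted p of 0.593 by limma. In linear terms this is 0.803 of the WT level. Without Ctcf cKO replicate 3 the difference was -0.21 and without WT replicate 1 it was -0.40, and the unadjusted p by limma lay between 0.0170 and 0.153 over the alternatives tried.

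Genes of B and plasma cells, which are known to express Itgb7 and Itga4, were set beside these values. Of the 11 measured genes in the B and plasma cell list, all 11 were negative, by a median of -0.75; 8 were lower at an unadjusted p under 0.05 by limma and 0 passed the test. The median was -0.47 without Ctcf cKO replicate 3 and -1.21 without WT replicate 3. Their summed linear level ranged from 11146 to 19846 in Ctcf cKO arrays and from 18515 to 30154 in WT arrays. Most of each sum was Ighm and Jchain, which differed by -0.64 and -0.90, both with overlap. The list's median over centred genes was lowest in Ctcf cKO replicate 3, at -0.75, the array with the lowest Itgb7 and the lowest Selplg, but that array had the highest Itga4 of its group. Mast cells and basophils are also known to carry Itgb7. Of the 9 measured beside Itgb7, 8 were positive, where 54.7% of all genes were, with a median of 0.38. Their summed linear levels were 1967 to 2807 in Ctcf cKO arrays and 1343 to 1795 in WT arrays. Most of each sum was Cpa3, which differed by 0.45 with overlapping groups, and Gata2, which differed by 0.34 without overlap. The negative gene was Prss34, at -0.21 with overlapping groups. Hdc, which makes histamine, passed the test (log2 difference 2.32, limma adjusted p = 0.0309), and the basophil protease gene Mcpt8 did not (1.11, limma adjusted p = 0.0708). Mcpt8 did pass with trend and robust settings, with only genes above the median mean, and with arrays centred on the brighter genes. With 1 array left out Hdc passed in 1 of 6 fits, namely that without Ctcf cKO replicate 2, with log2 differences between 2.02 and 2.50. The list's median, 0.36 with Itgb7 included, was 0.15 without Ctcf cKO replicate 1. The part of either cell type in the differences of Itgb7, Itga4 and Selplg was not tested. In sorted bulk RNA, fewer cells of a type and less RNA per cell cannot be told apart.

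Itgb1, the β1 chain shared by the α4, α5 and α6 integrins, had the smallest difference of the members in size. Log2 levels of Itgb1 were 8.31, 8.80 and 8.31 in Ctcf cKO arrays, against 8.26, 8.43 and 8.47 in WT arrays. A single array, Ctcf cKO replicate 2, stood above the other 5, which lay between 8.26 and 8.47. The difference was 0.09 (SE 0.15, 95% interval -0.26 to 0.44, limma adjusted p = 0.928), and without that replicate it was -0.08.

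Itga5, the α5 chain of the fibronectin receptor, had the largest positive difference of the members. It was at a log2 level of 8.18, 7.87 and 7.99 in Ctcf cKO arrays, against 7.90, 7.69 and 7.63 in WT arrays. The groups overlapped by a single pair, WT replicate 1 lying 0.03 above Ctcf cKO replicate 2. The difference was 0.28 (SE 0.13, 95% interval -0.01 to 0.56), or 1.21 times the WT level, with a limma adjusted p of 0.632. It stayed positive with any 1 array left out, between 0.19 and 0.35.

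Itga6 encodes the α6 chain, a laminin receptor of early progenitors that also marks megakaryocytes and their precursors. The Itga6 log2 levels were 8.61, 8.84 and 8.53 in Ctcf cKO arrays, against 8.49, 8.58 and 8.57 in WT arrays. The WT arrays lay close together, with an SD of 0.05 (n = 3), and Ctcf cKO replicate 3 fell among them. The difference was 0.11 (SE 0.12, 95% interval -0.15 to 0.37, limma adjusted p = 0.873), and it became 0.02 without Ctcf cKO replicate 2. The same replicate was thus the highest of the 6 arrays for Itga6 and Itgb1, which together form α6β1.

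**Figure D2:**
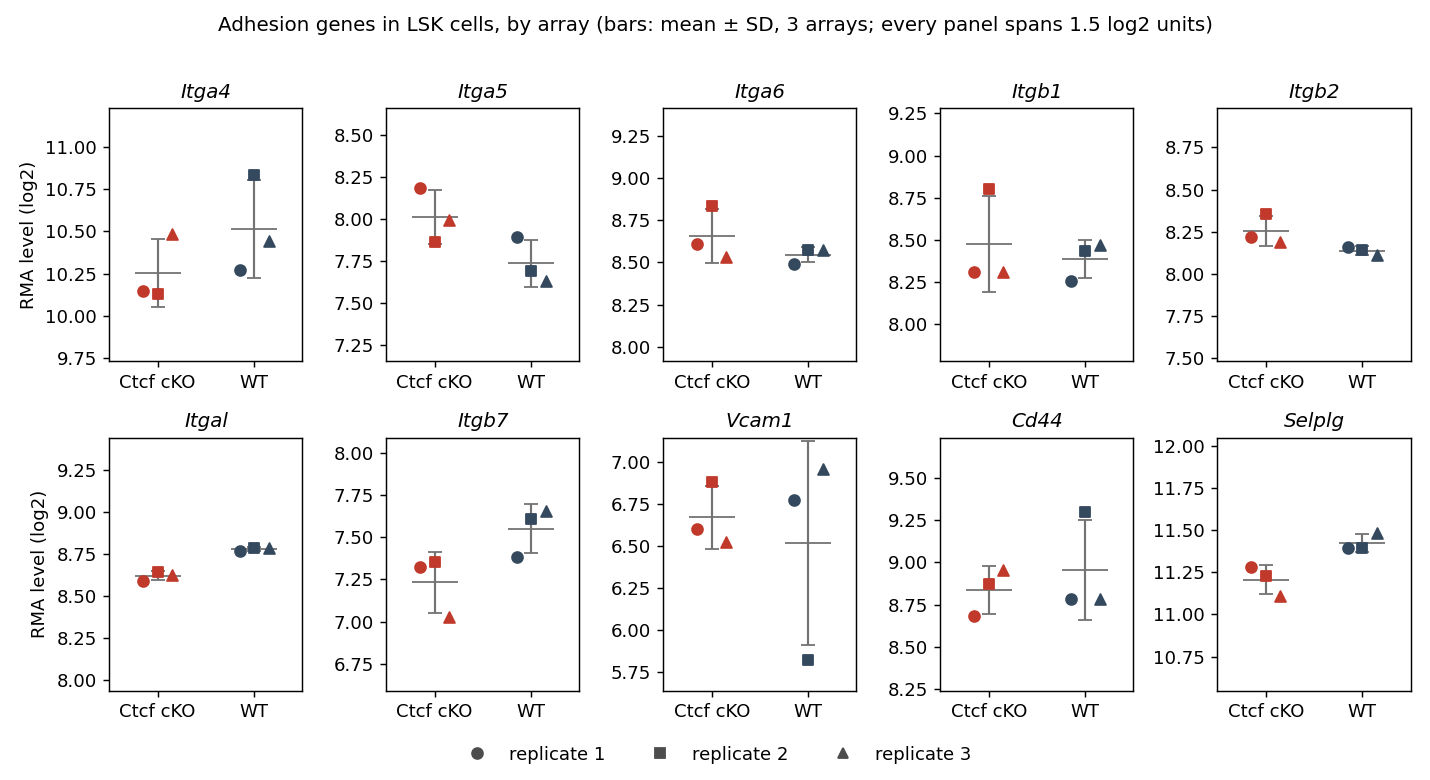
RMA log2 level of the 10 adhesion genes, 1 panel a gene, with Ctcf cKO arrays on the left and WT arrays on the right; symbols give the replicate number, bars the mean and SD of 3 arrays, and every panel spans the same height. The panels show the tight groups of Itgal, the single high Ctcf cKO array of Itgb1 at 8.80 and the single low WT array of Vcam1 at 5.83.

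The 2 chains of LFA-1, which binds ICAM-1 on vessel walls and other leukocytes, had differences of opposite sign, each with groups that did not overlap. Itgal, the αL chain, had log2 levels of 8.59, 8.64 and 8.63 in Ctcf cKO arrays, against 8.77, 8.79 and 8.78 in WT arrays. All 3 Ctcf cKO arrays lay within a range of 0.05, and all were below the WT arrays. The difference was -0.16 (SE 0.10, 95% interval -0.38 to 0.06, limma adjusted p = 0.732), which is 0.896 of the WT level, and with any 1 array left out it lay between -0.17 and -0.14.

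The arrays agreed on Itgal more closely than on nearly any other gene: only 0.108% of genes had a smaller pooled SD within groups than its 0.020. The limma fit shares variances between genes and so gave Itgal an SE of 0.10, where its own arrays give 0.016. In a fit without that sharing, added after the values were seen, the unadjusted p of Itgal was 0.000618 and its adjusted p 0.481, so it missed the threshold there too.

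Itgb2, the β2 chain shared by LFA-1 and the other leukocyte integrins, had log2 levels of 8.22, 8.35 and 8.19 in Ctcf cKO arrays, against 8.16, 8.14 and 8.11 in WT arrays. The lowest Ctcf cKO array and the highest WT array were 0.03 apart. The difference was 0.12 (SE 0.10, 95% interval -0.11 to 0.35, limma adjusted p = 0.841). Without Ctcf cKO replicate 2, the highest array, it was 0.07. Whether the differences of Itgal and Itgb2 differ from each other was not tested, as the pair was noticed from its values. Mature leukocytes carry LFA-1, so their markers were set beside it. Of 11 neutrophil genes 8 were negative, by a median of -0.52 that became -0.08 without WT replicate 1, -0.22 without Ctcf cKO replicate 3 and -1.05 without WT replicate 2, with summed linear levels of 1016 to 1749 in Ctcf cKO arrays and 1414 to 5713 in WT arrays. Of 10 measured T and NK cell genes 6 were negative, by a median of -0.05, with summed levels of 2312 to 3064 in Ctcf cKO arrays and 1508 to 2173 in WT arrays. These sums are mostly Nkg7, a granule gene of NK cells, at 1626 to 2272 in Ctcf cKO arrays and 899 to 1439 in WT arrays. Without Nkg7 the sums of the other 9 overlapped, at 663 to 792 in Ctcf cKO arrays and 609 to 801 in WT arrays. None of either list passed the test. At an unadjusted p under 0.05 by limma, 5 neutrophil genes were lower and 0 higher, beside 3.08% and 5.03% of all genes. Of the T and NK cell genes 1, Nkg7, was higher at that p and 0 were lower. The part of these cells in Itgal and Itgb2 was not tested.

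Vcam1 encodes the main cell-surface ligand of the α4 integrins, known in marrow from stromal cells, endothelium and macrophages, and found also on stem cells. It varied most between arrays of all the members. Its log2 level was 6.60, 6.88 and 6.53 in Ctcf cKO arrays, against 6.77, 5.83 and 6.96 in WT arrays. The low value of WT replicate 2 gave the WT group an SD of 0.61 (n = 3), and the Ctcf cKO arrays lay inside the WT range. The difference was 0.15 (SE 0.27, 95% interval -0.46 to 0.76, limma adjusted p = 0.928), and without WT replicate 2 it was -0.19. The fit thus leaves the sign of any change in Vcam1 unsettled.

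Markers of cells that carry Vcam1 were examined beside it. Of 11 monocyte and macrophage genes measured beside Vcam1, 8 were negative and 3 positive. Their summed linear level was 2006 to 2634 in Ctcf cKO arrays and 2046 to 3343 in WT arrays. Ctcf cKO replicate 3 was the lowest array for 6 of the 11 and WT replicate 2, the array with the low Vcam1, for 3. With Vcam1 included the list's median was -0.16, and it was -0.04 without WT replicate 1, -0.09 without Ctcf cKO replicate 3 and -0.25 without Ctcf cKO replicate 1. Of 13 endothelial and stromal genes beside Vcam1, 8 were negative and 5 positive, with a median of -0.04. Their summed levels were 2427 to 2812 in Ctcf cKO arrays and 2691 to 2980 in WT arrays. Most of each sum was Emcn and Pecam1, which differed by -0.30 and -0.09, both with overlap. With Vcam1 included, 7 of the 14 genes had a mean above the median of all genes' means. RMA values carry no detection call, so no marker can be said to be at 0, and the part of these cells in the value of Vcam1 was not tested.

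Cd44, the hyaluronan receptor, had log2 levels of 8.68, 8.87 and 8.96 in Ctcf cKO arrays, against 8.78, 9.30 and 8.78 in WT arrays. WT replicate 2 was the highest, while the other WT arrays lay within the Ctcf cKO range. The difference was -0.12 (SE 0.16, 95% interval -0.48 to 0.25, limma adjusted p = 0.906), and without WT replicate 2 it was 0.05. WT replicate 2 was thus the highest array for Cd44, Itga4 and, narrowly, Itgal, and the lowest for Vcam1. It also had the lowest G2/M cell cycle genes, a median of -0.80 over 17 centred genes where WT replicates 1 and 3 had -0.19 and 0.21. The part of the cell cycle genes in the adhesion genes was not tested.

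Selplg encodes PSGL-1, the ligand through which progenitors tether to P-selectin and E-selectin. Its log2 level was 11.28, 11.23 and 11.11 in Ctcf cKO arrays, against 11.40, 11.39 and 11.48 in WT arrays. All Ctcf cKO arrays were below all WT arrays, and the nearest pair was 0.11 apart. The difference was -0.22 (SE 0.10, 95% interval -0.45 to 0.02), or 0.860 of the WT level, with an unadjusted p of 0.0651 and an adjusted p of 0.638 by limma. With any 1 array left out it lay between -0.25 and -0.17. A dimmer probe set of Selplg read 9.72, 8.20 and 8.79 in Ctcf cKO arrays, against 9.66, 9.24 and 8.83 in WT arrays. It overlapped between the groups, and its difference of -0.34 had an SE of 0.40.

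**Figure D3:**
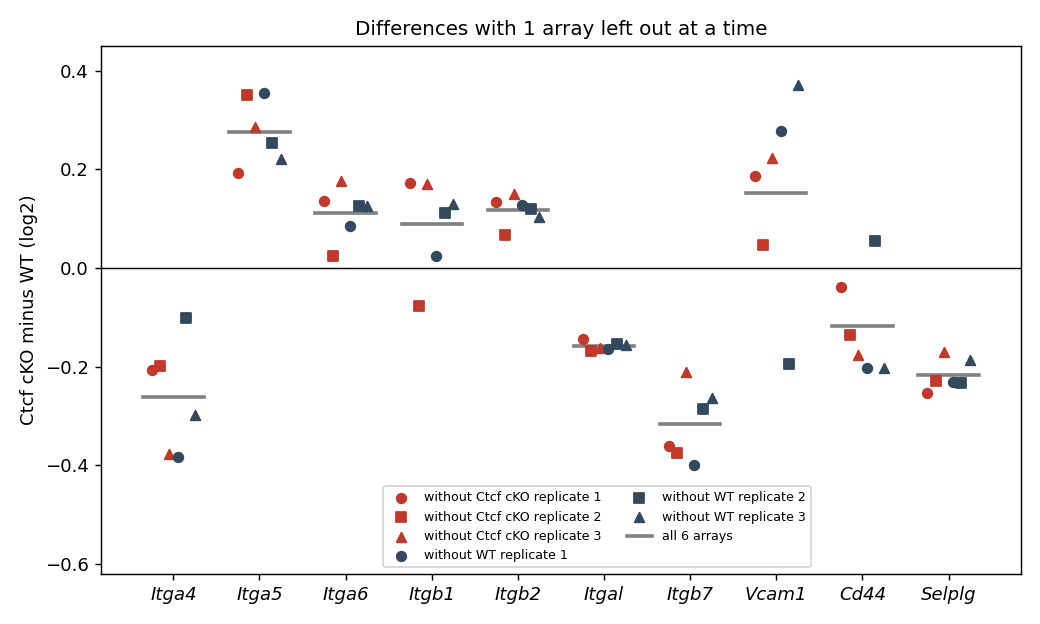
Log2 difference, Ctcf cKO minus WT, on the vertical axis for each of the 10 genes with 1 array left out at a time (red, a Ctcf cKO array; blue, a WT array; grey line, all 6 arrays). Itgal stays between -0.17 and -0.14, while Vcam1, Cd44 and Itgb1 each cross 0 in 1 of the 6 fits.

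Across the members no array stood apart in a single direction. After each gene was centred on its own mean, 4, 4 and 3 of the 10 were above it in Ctcf cKO arrays, against 4, 6 and 6 in WT arrays. The median of the centred members was -0.05, -0.02 and -0.07 in Ctcf cKO arrays, against -0.02, 0.04 and 0.05 in WT arrays. Over the 10 genes the range between the highest and lowest array was from 0.19 for Itgal to 1.13 for Vcam1.

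The genes whose profile over the 6 arrays lay closest to the extreme members were sought among 11089 genes above the median mean, by the root mean square distance between centred log2 profiles. For Itga5 they were Bpifb5, at a distance of 0.03, Abt1 at 0.04 and Prokr1 at 0.04. For Itgb7 they were Il31ra at 0.06, Zfp960 at 0.06 and Tapbp at 0.07. These are descriptions over 6 arrays, where close profiles are easily found among so many genes.

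The integrin chains outside the members were also short of calls, with the largest difference in the β3 chain. Of 18 measured chains 0 passed the test, and the median difference was -0.01. At an unadjusted p under 0.05 by limma 3 were higher and 1 lower, beside 5.03% and 3.08% of all genes. Itgb3, which pairs with αIIb on platelets and megakaryocytes and with αv on other cells, stood at 7.70, 7.78 and 7.59 in Ctcf cKO arrays, against 7.12, 6.66 and 7.04 in WT arrays. The groups were well apart, with a difference of 0.75 (SE 0.14, limma adjusted p = 0.162), larger than that of any of the 10 members. Itgb5, a β chain that pairs with αv, differed by 0.40 (SE 0.14, limma adjusted p = 0.522), and by 0.26 without Ctcf cKO replicate 2. Itga9 differed by -0.05 and Itgam, the α chain of Mac-1, by -0.23, and both overlapped between groups. Itgam was at -0.13 without WT replicate 2 and -0.14 without Ctcf cKO replicate 1.

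Of 6 megakaryocyte genes measured beside Itgb3 and Selp, which belong to the same list, 4 were positive and 2 negative, with a median of 0.16. Their summed linear level ranged from 1326 to 1461 in Ctcf cKO arrays and from 1161 to 1249 in WT arrays. Gp9 differed by 0.31 (limma adjusted p = 0.541) and Vwf by 0.34 (limma adjusted p = 0.508), both without overlap. Pf4 differed by 0.18 and Ppbp by -0.12, both with overlap. Gp6, a collagen receptor of platelets, was at 5.03, 5.37 and 5.05 in Ctcf cKO arrays, against 5.71, 5.67 and 5.45 in WT arrays. The difference of Gp6 was -0.46 (limma adjusted p = 0.423), also without overlap, and its mean lay below the median of all genes' means. Itga2b, the αIIb partner of β3, differed by 0.13 (limma adjusted p = 0.839), with overlapping groups, and lay between 0.07 and 0.22 with 1 array left out. The part of megakaryocyte-primed cells in the level of Itgb3 was not tested.

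Genes that switch integrins to the open form and tie them to actin showed 0 calls among 21 measured. Rap1b, a small GTPase of inside-out signalling, differed by 0.29 (SE 0.13, limma adjusted p = 0.611). It was the only 1 of the list at an unadjusted p under 0.05 by limma, beside 8.11% of all genes. Parvb, a parvin of the actin link, differed by 0.30, Cytip, an inhibitor of LFA-1 adhesion through cytohesin, by -0.21, and Ptk2b, a kinase of the focal adhesion kinase family, by -0.20, with overlapping groups in all 3. With 1 array left out Parvb lay between 0.13 and 0.45, Cytip between -0.35 and 0.02 and Ptk2b between -0.31 and -0.09. A much dimmer probe set of Rap1b differed by -0.03, and the mean of both by 0.13. The list's median was 0.02.

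Ligands of integrins gave 0 calls among 19 measured genes, with a median of 0.03. Thbs1, the matrix protein thrombospondin-1, stood at 6.62, 6.41 and 6.33 in Ctcf cKO arrays, against 7.89, 7.86 and 6.90 in WT arrays. The groups did not overlap, although WT replicate 3 was close to the Ctcf cKO arrays, and the difference was -1.10 (SE 0.25, limma adjusted p = 0.270). Without WT replicate 3 it was -1.42 and passed, with a limma adjusted p of 0.0226. F11r, the junctional adhesion molecule that binds LFA-1, differed by 0.36 (limma adjusted p = 0.508), Lamc1, a laminin chain, by 0.19 and Icam1, the main LFA-1 ligand, by -0.17 (limma adjusted p = 0.737).

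Selectins and the enzymes that modify PSGL-1 were measured for 10 genes, of which 0 passed, with a median of 0.10. Selp, which encodes P-selectin, the receptor of PSGL-1, stood at 8.36, 8.71 and 8.84 in Ctcf cKO arrays, against 7.63, 7.94 and 8.16 in WT arrays, a difference of 0.73 (SE 0.17, limma adjusted p = 0.310). St3gal6, a sialyltransferase that builds selectin ligands, stood at 6.29, 6.28 and 6.57 in Ctcf cKO arrays, against 6.99, 6.85 and 6.89 in WT arrays, a difference of -0.53 (SE 0.12, limma adjusted p = 0.270). Neither pair of groups overlapped, and both differences were larger in size than that of Selplg itself. Fut7, the fucosyltransferase of selectin ligands, differed by -0.32 with overlapping groups, at -0.18 without Ctcf cKO replicate 3 and -0.49 without Ctcf cKO replicate 2, and B4galt1 by 0.15.

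Partners of CD44 and genes of hyaluronan gave 0 calls among 10, with a median of 0.06. Hmmr, a hyaluronan receptor that is also a mitotic spindle gene, differed by 0.58 (SE 0.29, limma adjusted p = 0.659), and Msn, which links CD44 to actin, by 0.35 (SE 0.19, limma adjusted p = 0.702). Hmmr was at 0.24 without WT replicate 2 and 0.88 without WT replicate 3, and Msn at 0.15 without Ctcf cKO replicate 2 and 0.22 without WT replicate 1. The proteoglycan core gene Srgn differed by 0.00 and Hyal2, a hyaluronidase, by -0.05. All 17 G2/M genes had positive differences beside Hmmr, with a median of 0.55, where 54.7% of all genes were positive. At an unadjusted p under 0.05 by limma 10 were higher and 0 lower, beside 5.03% and 3.08% of all genes, and there were 0 calls. The median was 0.31 without WT replicate 2.

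Tetraspanins, which gather integrins in the membrane, gave 0 calls among 9, with a median of 0.00. Cd9 stood at 8.33, 8.38 and 7.92 in Ctcf cKO arrays, against 7.65, 7.58 and 7.72 in WT arrays, a difference of 0.56 (SE 0.14, limma adjusted p = 0.342) without overlap. A much dimmer probe set of Cd9 differed by 0.04, and the mean of both by 0.30. Cd63 differed by 0.48 with overlap, and by 0.24 without Ctcf cKO replicate 2, Cd53 by -0.06 and Cd81 by -0.10. Among 15 other surface adhesion genes 0 passed and the median was 0.04. Cd47, the signal that keeps macrophages from engulfing a cell, was at 11.10, 11.27 and 11.23 in Ctcf cKO arrays, against 11.39, 11.95 and 11.68 in WT arrays, a difference of -0.47 (SE 0.15, limma adjusted p = 0.477) without overlap. Cd24a differed by -0.23, Bsg by 0.14 and Esam by 0.09, all with overlap. Bsg was at 0.08 without WT replicate 2, and Esam between 0.03 and 0.16 with 1 array left out.

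**Figure D4:**
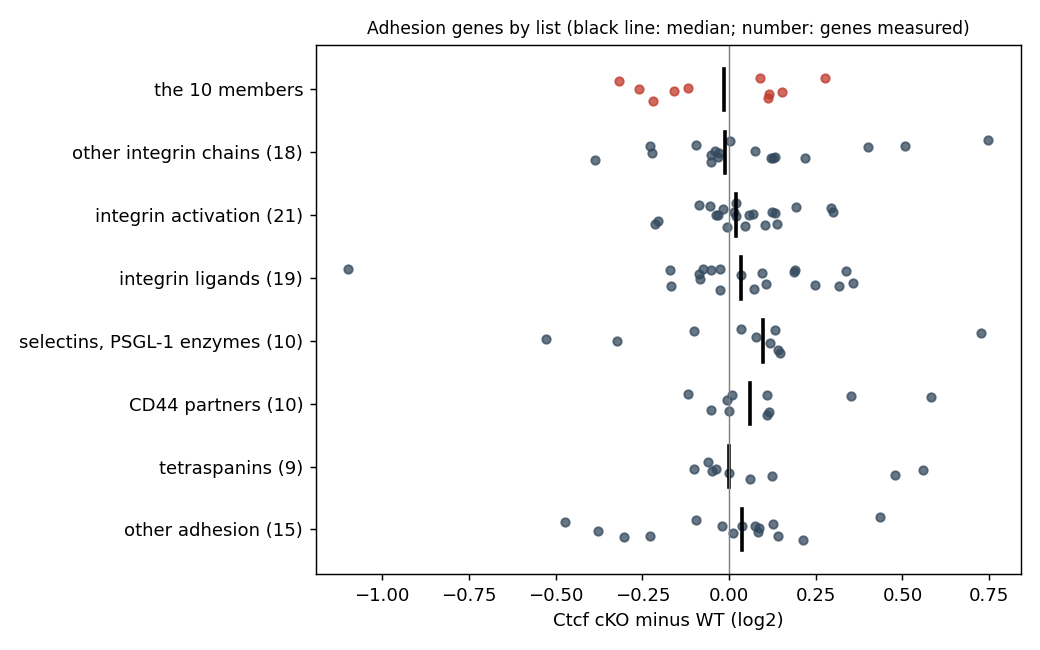
Log2 differences, Ctcf cKO minus WT, on the horizontal axis of the 10 adhesion genes (red) and of 7 lists of related genes (blue); each point is a gene and the black lines are list medians. The members lie between -0.32 and 0.28, and the widest points of the other lists are Thbs1 at -1.10 and Itgb3 at 0.75.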

How the data were processed

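RNA of 6 LSK samples was measured on Affymetrix Mouse Gene 2.0 ST arrays. The authors deposited log2 values, summarised with RMA in the R package oligo per the submitters' processing notes; neither the versions nor the annotation release are stated there. RMA equalises array distributions and shrinks differences of dim probe sets. Of 41345 probe sets 23521 had 1 symbol in GEO's platform annotation, 1814 several and 16010 none here. Each of 22180 genes was represented by its brightest single-symbol probe set over the 6 arrays, with no filter on low values.

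Groups were compared by limma 3.58.1 (R 4.3.3; lmFit and eBayes, group as the only term) with Benjamini-Hochberg adjustment over all genes, and single members also by an exact permutation test. SDs are between 3 arrays, whose number limits the precision. The fit was also run on simulated data with independent noise for each gene. Such noise leaves out any correlation between genes, so that run does not check the calls made here. Members and gene lists were chosen with earlier results of these data known. Other genes named are, per list, the 2 highest and the 2 lowest by moderated statistic among genes whose brighter group was above 6.29. Itga2b, Nkg7, Gp6, Gp9, Vwf, Pf4, Ppbp, Hdc, Mcpt8, Prss34, Flt3 and Slamf1 were named as markers after their values were seen. Ighm, Jchain, Cpa3, Gata2, Emcn and Pecam1 were also named after their values were seen, as genes that made up most of a sum. The comparison was repeated under 15 other settings, 6 of which leave out an array, and under 1 chosen after the data were seen.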

Additional observations from a re-analysis of the deposited data

How the results depend on the processing

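No member passed the limma threshold under any of the 16 alternatives, and the lowest adjusted p of a member in any of them was 0.441, for Itgb7. Differences of 7 of the 10 members kept their sign throughout. With 1 array left out, Itgb1 lay between -0.077 and 0.17, Vcam1 between -0.19 and 0.37 and Cd44 between -0.20 and 0.054. Among the other named genes, Itga9 lay between -0.14 and 0.005, Cytip between -0.35 and 0.019, Srgn between -0.032 and 0.040, Hyal2 between -0.15 and 0.092, Cd53 between -0.14 and 0.053 and Cd81 between -0.20 and 0.033. The median difference of the members, -0.01, was -0.0707 after a further quantile normalization, -0.0705 with arrays centred on the brighter genes, and between -0.11 and 0.047 with 1 array left out. Medians of the 7 lists of related adhesion genes stayed between -0.06 and 0.13 with 1 array left out. The number of genes called in all, 16, was 25 with trend and robust settings, 3 with all probe sets tested, 1 with variances of single genes, 26 at an adjusted p under 0.1, and between 0 (without Ctcf cKO replicate 1, where 1725 genes had an unadjusted limma p under 0.05) and 8 with 1 array left out.

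With the replicate number as a block 7 genes were called over the whole table and 0 members. The numbers give no pairing in the labels. Same-numbered arrays had correlations of deviations from their group means of 0.29, 0.02 and -0.14. Arrays of different number had values between -0.25 and 0.25. Deviations within groups of 3 arrays cannot settle whether same-numbered arrays share more than a number.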
